A study of Mus musculus with 2 samples.

Results

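A set of 10 genes of the ATF4 and CHOP stress response was followed through splenic DC that carry, or lack, a working MHC class II α chain: Atf4, Ddit3, Nupr1, Trib3, Cebpb, Eif4ebp1, Ppp1r15a, Chac1, Ddit4 and Sesn2. They were taken by gene symbol from the deposited tables, where 10 of 10 were found among 32285 genes. Ddit3 has a second identifier, nested in the same locus, which held 0 UMIs in both libraries, so that every Ddit3 value comes from ENSMUSG00000025408. The cells were live CD45.2+ CD11c+ splenocytes of naive female mice, aged 4 months by the labels, profiled by droplet scRNA-seq that counts unique molecular identifiers (UMIs) at the 3′ end of transcripts. The WT library (H2-Aa +/+) and the H2-Aa cit/cit library were each made from 3 pooled mice. The cit (citation) allele is a germline splice mutation of H2-Aa induced by ENU on a C57BL/6J background, so that it is present in every cell of the mouse and not in DC alone, and the mice pooled in a library cannot be told apart.

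With 1 library per genotype there is no replicate error and no test between genotypes was possible. Every interval below is a 95% exact counting interval of the UMIs or cells in these libraries and covers counting error only. There were 7814 cells with 51020804 UMIs in all for WT, compared with 11525 cells with 72652201 UMIs for H2-Aa cit/cit. H2-Aa itself gave 5410 CPM (UMIs scaled to the summed UMIs of the cells) in WT but 66.2 CPM in H2-Aa cit/cit cells. Cells were put into classes by counting UMIs of a few marker genes. The class of main interest here, cDC1, was gated on at least 2 UMIs of Xcr1 and Clec9a together and had 858 cells in WT, against 928 in H2-Aa cit/cit, with medians of 11444 and 13339 UMIs per cell. Summed over 12 cDC1 markers, which include both gate genes, the gate gave 7152 CPM in WT, against 6473 CPM in H2-Aa cit/cit cells. The gate was not pure, and at least 2 UMIs of Sirpa and Siglech were found in 185 of its WT cells, and in 230 from H2-Aa cit/cit. In addition, 119 WT but 29 H2-Aa cit/cit cells of the gate held at least 3 UMIs of Ccr7 and Fscn1, genes of mature DC, and 4 erythroid genes summed to 541 CPM in WT but 3.07 CPM in H2-Aa cit/cit cDC1. The libraries shared 31 cell barcodes, of which 1 was in the cDC1 gate of each library.

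As background, several kinases phosphorylate the translation initiation factor eIF2α when a cell is short of amino acids or heme, infected, or holds unfolded proteins in its ER. General protein synthesis then falls, while the mRNA of the transcription factor ATF4 is translated more. ATF4 acts with other bZIP proteins on genes for amino acid supply and redox balance and on Ddit3, the gene of CHOP. When the stress lasts, CHOP contributes to cell death. Because ATF4 is controlled in large part at translation, its mRNA is a partial readout of the pathway. cDC1 are the DC subset known for cross-presentation of antigen to CD8 T cells.

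The transcription factors of the group were all higher in H2-Aa cit/cit cDC1. Atf4 gave 50.9 CPM (46.7 to 55.4) in WT, against 167 CPM (160 to 174) in H2-Aa cit/cit cDC1, a log2 ratio of 1.71 (1.58 to 1.85). Ddit3 gave 12.3 CPM (10.3 to 14.6) in WT, against 133 CPM (127 to 140) in H2-Aa cit/cit cDC1, a log2 ratio of 3.44 (3.18 to 3.71). Ddit3 thus had a larger ratio than Atf4. Cebpb, which encodes a bZIP partner of both ATF4 and CHOP, gave 8.70 and 56.3 CPM (log2 ratio 2.69, 2.38 to 3.02). Nupr1, a small chromatin-associated stress protein, gave 2.93 CPM (1.99 to 4.16) in WT, against 106 CPM (101 to 112) in H2-Aa cit/cit cDC1, a log2 ratio of 5.18 (4.67 to 5.75). In none of these 4 genes did the intervals of the levels overlap between the libraries. Counting intervals are narrow at such UMI sums, and the share of all genes with intervals apart was not computed. The difference lay both in the number of positive cells and in the UMIs per positive cell: the 105 WT cDC1 with a Ddit3 UMI held 1.24 on average and at most 5, and the 490 H2-Aa cit/cit cDC1 with one held 3.54 on average and up to 21.

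Trib3 and Chac1, targets of the pathway, were close to absent from WT cDC1. Trib3, a pseudokinase that binds ATF4 and limits its activity, was counted 5 times in 858 WT cells, compared with 432 times in 928 H2-Aa cit/cit cells, which is 0.47 CPM (0.15 to 1.10) against 33.2 CPM (30.1 to 36.5) and a ratio of 70.2 (29.8 to 217). Chac1, which degrades glutathione, was counted 3 and 166 times, 0.28 against 12.7 CPM, a ratio of 44.9 whose interval ran from 15.1 to 220. The width of both intervals follows from the few WT UMIs. No WT cDC1 held more than 1 UMI of either gene, whereas 101 H2-Aa cit/cit cDC1 held at least 2 UMIs of Trib3 and 26 at least 2 of Chac1.

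Trib3, Chac1 and Nupr1 had the 3 largest ratios among the 10 genes in cDC1. They were also the genes of the group with a match to the core of the C/EBP-ATF response element, the composite site to which ATF4 is known to bind with a C/EBP partner. The letters TGATGNAA were searched on both strands of 300-base RefSeq windows (GRCm38.p6) around annotated start sites, which were at hand for 9 of the 10 genes and not for Eif4ebp1. The 3 sequences are shown on the strand of the gene, with the match in capitals, where it reads as the reverse complement of the letters searched. That of Chac1 begins 193 and that of Nupr1 110 bases upstream of the RefSeq start site, and that of Trib3 begins 14 bases after it. Annotations differ on these sites. In GENCODE vM21 the Nupr1 gene begins at 126630861, which places its match within the gene. The Trib3 gene begins there at 152344032, which places its match upstream.
Chac1, chr2:119351033-119351072, plus strand: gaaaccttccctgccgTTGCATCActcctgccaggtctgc
Nupr1, chr7:126625557-126625596, minus strand: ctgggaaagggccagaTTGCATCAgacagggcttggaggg
Trib3, chr2:152344031-152344054, minus strand: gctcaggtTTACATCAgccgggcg
The matches of Chac1 and Nupr1 share all 8 letters, although the pattern searched leaves only its N free to differ. Of all 32851 windows, 3.97% held the motif, against 3 of 9 here. A wider pattern, TGANGNAA, was held by 16.5% of all windows and by the same 3 of 9 genes. It gave a second match in Chac1, 250 bases upstream of the start site. The windows of the other 6 genes held none, which says only that the letters are not within these 300 bases. A match is a description of sequence, and binding was not measured.

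The next 3 genes act on mTORC1, the kinase complex that couples nutrients to protein synthesis, or at its output. Eif4ebp1, the translational repressor 4E-BP1, gave 35.6 CPM (32.1 to 39.4) in WT, against 179 CPM (172 to 186) in H2-Aa cit/cit cDC1 (log2 ratio 2.33, 2.17 to 2.49). Sesn2, a leucine sensor that restrains mTORC1, gave 12.01 and 37.2 CPM (log2 ratio 1.63, 1.35 to 1.93). Ddit4, also called REDD1, an inhibitor of mTORC1 that hypoxia and glucocorticoids induce as well, gave 10.6 and 29.7 CPM (log2 ratio 1.49, 1.18 to 1.81). These 3 were higher in the H2-Aa cit/cit library, with ratios below those of Ddit3, Nupr1 and Trib3.

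**Figure D1:**
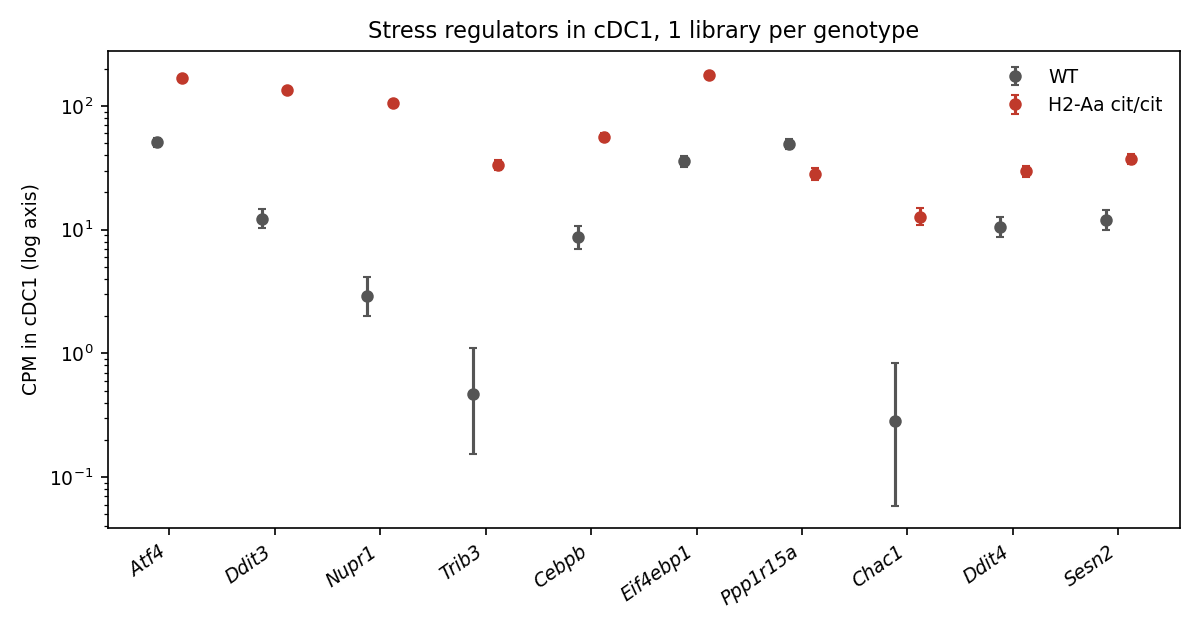
Scaled UMIs (CPM, log axis) of the 10 genes in the cDC1 gate of the WT (gray) and H2-Aa cit/cit (red) library, with 95% counting intervals. In 9 genes the H2-Aa cit/cit value lies above that of WT, most widely in Trib3 (0.47 and 33.2 CPM) and Chac1, while Ppp1r15a lies below (49.3 and 28.2 CPM).

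Ppp1r15a went the other way. It encodes GADD34, the stress-induced subunit that brings a phosphatase to eIF2α and so ends the response. It gave 49.3 CPM (45.1 to 53.7) in WT, against 28.2 CPM (25.4 to 31.2) in H2-Aa cit/cit cDC1, a log2 ratio of −0.81 (−1.002 to −0.61). The WT UMIs were held by few cells: the 119 cells with Ccr7 and Fscn1 UMIs carried 60.8% of them, at 174 CPM (156 to 195), whereas the other 739 WT cells gave 23.3 CPM (20.2 to 26.7). In H2-Aa cit/cit cDC1 the 29 cells of that kind gave 62.1 CPM (44.3 to 84.5) and the other 899 cells 26.4 CPM (23.6 to 29.4). Without the Ccr7 or Fscn1 cells the log2 ratio of Ppp1r15a was 0.18 (−0.08 to 0.44), so that the lower level was not seen in the rest of the gate. The mature DC markers summed to 1147 CPM in WT, against 248 CPM in H2-Aa cit/cit cDC1. By the rule for calls given below, 8 of 8 were called lower, where 8.4% of all 8203 genes tested in cDC1 were. The share of cells with a Ppp1r15a UMI was close between the libraries. At 1500 UMIs per cell it was 5.87% (4.39 to 7.66) in WT, against 4.45% (3.21 to 5.98) in H2-Aa cit/cit cDC1. At full depth, where H2-Aa cit/cit cDC1 held more UMIs per cell, it was 28.3% and 29.1%. The other 9 genes stayed higher in H2-Aa cit/cit cDC1 without the Ccr7 or Fscn1 cells, Ddit3 with a log2 ratio of 3.82 (3.50 to 4.15).

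**Figure D2:**
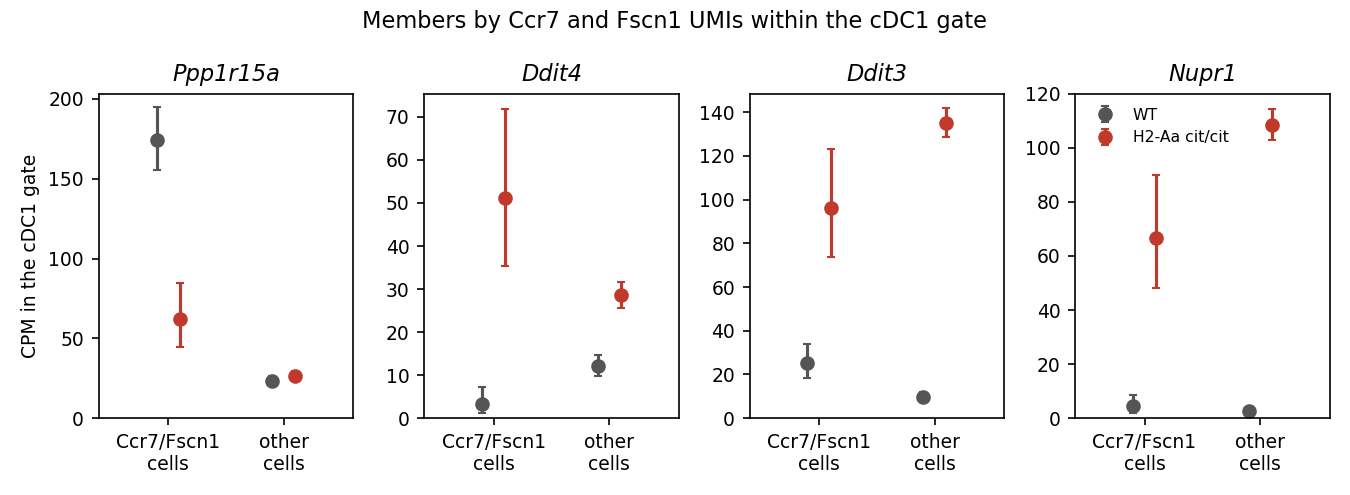
CPM of 4 genes in cells of the cDC1 gate with at least 3 UMIs of Ccr7 and Fscn1 (119 cells in WT, 29 in H2-Aa cit/cit) and in the other cells of the gate (739 and 899), with 95% counting intervals, WT gray and H2-Aa cit/cit red. Ppp1r15a was high in the Ccr7 or Fscn1 cells of WT (174 CPM) and close between libraries in the other cells (23.3 and 26.4 CPM), whereas Ddit3, Nupr1 and Ddit4 were higher in H2-Aa cit/cit in both sets.

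A gene was called higher or lower when the libraries differed at least 1.5-fold, the counting interval of the ratio excluded 1 and the mean of both libraries was at least 10 CPM. In cDC1, 9 of the 10 genes reached that level. Of these, 8 were called higher and Ppp1r15a lower, where 6.55% of all 8203 genes so tested were called higher and 8.40% lower. Chac1, at a mean of 6.52 CPM, was below the minimum. Trib3, Nupr1 and Cebpb lay below 10 CPM in WT and passed the minimum only through the H2-Aa cit/cit library. For them a ratio below 1, and so a call of lower, was not possible, which also bears on the median and ranks that follow. The median log2 ratio was 2.33 over the 9 genes and −0.01 over all genes tested. Ranked by ratio among these 8203 genes, Trib3 was 2nd, Nupr1 4th, Ddit3 13th, Cebpb 23rd, Eif4ebp1 27th, Atf4 65th, Sesn2 75th and Ddit4 90th from the top. With the cells that held at least 2 Sirpa and Siglech UMIs left out, the ratios of Nupr1 and Cebpb were larger, at log2 6.69 and 3.58. With a wider gate of 1 UMI or more they were smaller, at 4.12 (3.78 to 4.48) and 1.98 (1.74 to 2.22). After thinning every cell to 1500 UMIs, Atf4 was found in 6.69% of WT, against 22.1% of H2-Aa cit/cit cDC1, Ddit3 in 1.76% and 14.97%, Nupr1 in 0.59% and 11.8%, and Trib3 in 0.12% and 4.45%. The shares at full depth were 39.98% and 71.8% for Atf4 and 12.2% and 52.8% for Ddit3. No class lacks these genes by definition. As a gauge of free RNA, 0 of 63 thinned H2-Aa cit/cit pDC held a UMI of Nupr1 or Trib3, which allows a share of up to 5.69%, at a median depth of 6688 UMIs before thinning. For Trib3 that upper limit lies above the 4.45% found in thinned H2-Aa cit/cit cDC1, so that the thinned shares could not tell these classes apart. At full depth 3 of 64 pDC held Nupr1 (4.69%) and 0 held Trib3. The shares of H2-Aa cit/cit cDC1, whose cells held more UMIs, were 47.8% and 28.3%.

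The cDC1 gate held 20.7% of all WT UMIs, against 17.9% of those from H2-Aa cit/cit. Of the UMIs of Nupr1 they held 6.53% in WT but 41.2% in H2-Aa cit/cit, of Cebpb 7.37% and 33.7%, and of Ddit3 17.4% and 37.7%. Ddit4 and Ppp1r15a were at most 12.1% in cDC1 in either library, below the share of all UMIs in both. Most UMIs of every gene other than Trib3 and Chac1 lay outside cDC1 in both libraries. Cells and RNA per cell both set such shares.

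In cDC2, gated on Sirpa, Clec4a4 and Clec10a and made up of 2363 cells from WT, against 4216 from H2-Aa cit/cit, fewer of the genes differed. Of the 8 genes tested, 5 were called higher and 0 lower, where 2.13% of 8373 genes were called higher and 2.93% lower. Nupr1, below 10 CPM in WT, was tested only through its level in H2-Aa cit/cit cells. Nupr1 gave 3.61 CPM in WT, against 26.3 CPM in H2-Aa cit/cit cDC2 (log2 ratio 2.87, 2.46 to 3.304), and Ddit3 gave 13.2 and 49.4 CPM (1.91, 1.68 to 2.13). Eif4ebp1 and Ddit4 both had a log2 ratio of 1.03, and Atf4 one of 0.76. Cebpb (13.4 and 15.7 CPM) and Sesn2 (35.6 and 32.9 CPM) had ratios whose intervals included 1, unlike in cDC1, and the difference between the classes was not tested. Ppp1r15a gave 49.96 and 40.1 CPM (−0.32, −0.46 to −0.18), short of 1.5-fold. Trib3 was counted 2 times in WT but 139 times in H2-Aa cit/cit cDC2, a ratio of 38.5 with an interval of 10.4 to 321. The order of the classes by level differed between genes: in the H2-Aa cit/cit library Atf4 and Ddit3 were higher in cDC1 (167 and 133 CPM) than in cDC2 (65.0 and 49.4 CPM), whereas Ddit4 was higher in cDC2 (99.1 CPM, 95.3 to 103) than in cDC1 (29.7 CPM, 26.8 to 32.8). The median share of ribosomal UMIs in cDC2 was 11.2% in WT, against 17.0% in H2-Aa cit/cit cells. When cells with less than 8% were left out of both libraries, 5 genes were again called higher, with Ddit3 at 1.89 and Nupr1 at 2.98 on the log2 scale.

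The remaining classes carried parts of the pattern. In mature DC, where Ccr7 and Fscn1 summed to at least 3 UMIs, 4 of 8 genes tested were called higher and 0 lower, with 7.53% and 4.65% of all 8198 genes. Of 8 cDC2 markers 5 were also called higher there (596 and 881 CPM summed), and the median share of ribosomal UMIs was 8.72% in WT, against 11.4% in H2-Aa cit/cit cells. Their part was not tested. The 4 genes were Nupr1 (12.04 and 39.3 CPM), Eif4ebp1 (9.50 and 24.3 CPM), Ddit4 (12.8 and 32.2 CPM) and Ddit3 (19.0 and 42.6 CPM). Eif4ebp1, below 10 CPM in WT, reached the minimum mean through the H2-Aa cit/cit library. Ppp1r15a had its highest level there in both libraries, 186 CPM in WT, against 134 CPM in H2-Aa cit/cit cells. In proliferating cells, gated on Mki67 and Top2a, Ddit3, Eif4ebp1 and Ddit4 were called higher, 3 of 7 tested, and 0 lower, with backgrounds of 2.82% and 3.49%. Nupr1, below the minimum mean there, was counted 9 times in WT, against 84 times in H2-Aa cit/cit cells. Trib3, also below the minimum, was counted 1 and 27 times there and 1 and 31 times in mature DC. In Ccr2/Mgl2 cDC2, 2 of 8 were called higher, Atf4 (43.2 and 70.8 CPM) and Ddit3 (11.01 and 33.0 CPM), and Ppp1r15a was called lower (53.5 and 28.7 CPM), with backgrounds of 3.46% and 2.71%. There, Trib3 was counted 0 times in WT but 19 times in H2-Aa cit/cit cells, at least 2.93-fold higher against a floor of 3 UMIs. Cells outside every gate (1967 in WT, 3731 in H2-Aa cit/cit) were not plotted and no calls were made in them. Their log2 ratios were 3.15 for Nupr1, 2.55 for Ddit3, 1.49 for Eif4ebp1, 1.45 for Ddit4 and 1.14 for Atf4, each above that in cDC2. Trib3 was counted 1 and 156 times in them. Intervals included 1 for Cebpb and Sesn2, and Ppp1r15a was lower (−0.22). The median share of ribosomal UMIs in these cells was 7.23% and 13.9%.

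Monocyte-like cells, 133 in WT against 204 in H2-Aa cit/cit and gated on Ace and Fabp4, held the highest Cebpb level of all classes with at least 50 cells. Cebpb gave 666 CPM (618 UMIs) in WT, against 338 CPM (472 UMIs) in H2-Aa cit/cit cells, a log2 ratio of −0.98 (−1.15 to −0.80). The 6 monocyte markers, which include both gate genes, summed to 1936 CPM in WT, against 1262 CPM in H2-Aa cit/cit cells, with 2 of the 5 tested called lower and 0 higher. Of 7 cDC2 markers tested 3 were called higher, with sums of 1016 and 1188 CPM, and the part of these markers in the Cebpb level was not tested. Of 8 genes tested there, Ddit4 was called higher (84.1 and 132 CPM) and Cebpb and Ppp1r15a lower, with backgrounds of 3.58% and 6.14%. Atf4 was level, with 50.7 and 52.3 CPM. In pDC (51 WT cells, against 64 from H2-Aa cit/cit), Atf4 gave 59.8 CPM (40.4 to 85.4) and 48.6 CPM (30.8 to 73.0) and Ddit3 21.9 and 19.0 CPM, with log2 ratios of −0.30 (−1.15 to 0.53) and −0.20 (−1.65 to 1.20). A difference of the size of that of Ddit3 in cDC1 lies outside the latter interval. Among pDC the interval excluded 1 for Ddit4 alone (25.9 and 57.1 CPM, 0.14 to 2.22 on the log2 scale), and 0 UMIs of Trib3 and Chac1 were found in either library. In macrophages Ddit4 was counted 5 and 23 times (12.4 and 91.9 CPM). Ddit4 was thus higher in H2-Aa cit/cit cells, with an interval that excluded 1, in each of the 8 classes plotted. In pDC it rested on 13 and 27 UMIs, and in Ccr2/Mgl2 cDC2 it was short of 1.5-fold (log2 ratio 0.49). How many of all genes had such intervals in every class was not computed.

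**Figure D3:**
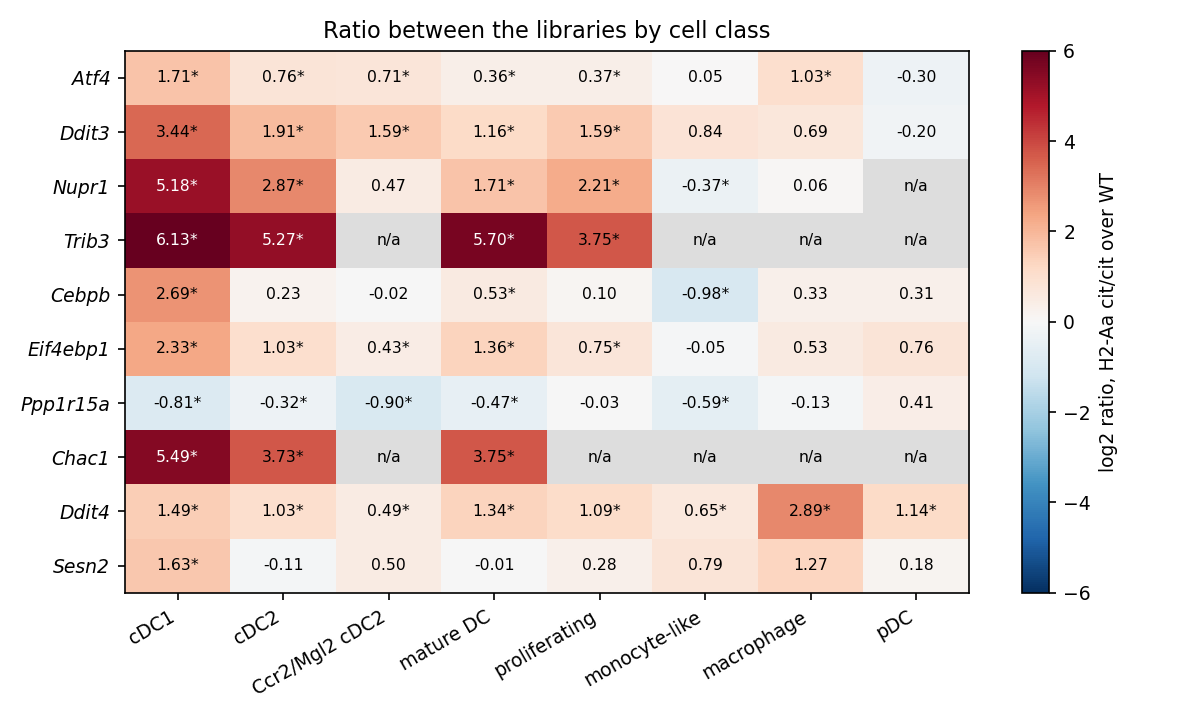
Log2 ratio of CPM, H2-Aa cit/cit over WT, for the 10 genes (rows) in 8 classes with at least 50 cells in each library (columns), red higher and blue lower in H2-Aa cit/cit. An asterisk marks ratios whose 95% counting interval excludes 0, and gray cells marked n/a had 0 UMIs in WT or in both libraries. Nupr1, Ddit3 and Cebpb have their highest ratios in cDC1, Ddit4 is above 0 in every column, and Cebpb is negative in monocyte-like cells (−0.98).

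To count the genes found per cell, each cDC1 was thinned to 5000 UMIs, which left 714 cells of WT against 854 of H2-Aa cit/cit. A WT cDC1 then held UMIs of 0.73 of the 10 genes on average and a H2-Aa cit/cit cDC1 of 2.46. At least 4 genes were found in 3 WT cells (0.42%, 0.09 to 1.22) and in 240 H2-Aa cit/cit cells (28.1%), and the most found in any cell was 4 in WT, against 8 in H2-Aa cit/cit. None of the 10 was found in 333 WT cells (46.6%), against 111 H2-Aa cit/cit cells (13.0%). Higher shares of single genes change these numbers even where genes are spread over cells independently. No expected numbers were computed, so the difference between libraries does not show that the genes lie in the same cells. In cDC2 at the same depth, at least 4 were found in 10 of 1299 WT cells, against 217 of 2715 H2-Aa cit/cit cells (0.77% and 7.99%). Of cDC2, 1064 of 2363 WT cells and 1501 of 4216 H2-Aa cit/cit cells were shallower and left out. Of mature DC, 471 of 1822 and 517 of 1255 were left out.

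**Figure D4:**
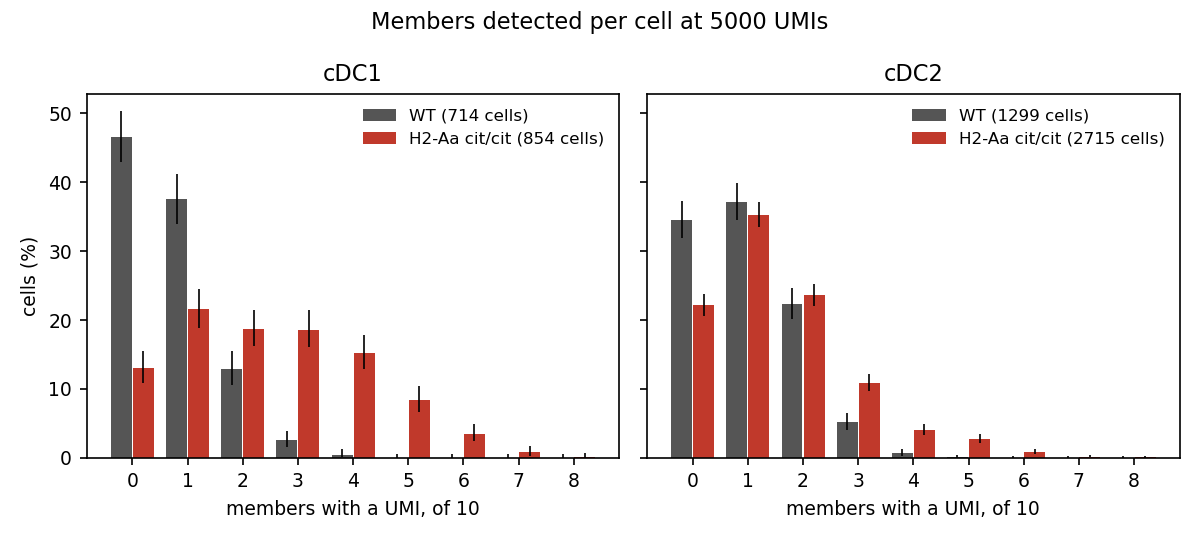
Percent of cells by the number of the 10 genes with a UMI in cDC1 (left, 714 WT cells, 854 from H2-Aa cit/cit) and cDC2 (right, 1299 and 2715), after thinning to 5000 UMIs, with 95% exact binomial intervals, WT gray and H2-Aa cit/cit red. WT cDC1 end at 4 genes, and H2-Aa cit/cit cDC1 reach 8.

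Within H2-Aa cit/cit cDC1 most pairs of the genes occurred together more often than the product of their separate shares would give. Of 45 pairs, 43 had a product of at least 5 cells, and 32 of these lay above it. Pairs of other genes were not counted, so that it cannot be told whether such numbers are particular to these genes. The share of cells with the later gene of the pair, in the order listed at the start, had intervals apart between cells with and without the earlier gene in 25 pairs, above in 21 and below in 4. That number depended on depth and gate, with 8 pairs at 2500 UMIs per cell, 28 at 8000, and 12 with a gate of 5 UMIs or more. Atf4 was found in 61.5% (55.8 to 67.0) of the 304 cells with a Ddit3 UMI and in 41.6% (37.5 to 45.9) of the cells without. Nupr1 was found in 44.1% and 21.3% of cells with and without Ddit3, and Chac1 in 9.54% and 1.82%. Of the 106 cells with Trib3, 51.9% held Nupr1, compared with 26.2% of those without. In WT cDC1, where UMIs were few, 13 pairs had a product of at least 5 cells, 7 lay above it and 0 had intervals apart. The pattern was not particular to cDC1. In H2-Aa cit/cit cDC2, 32 of 38 such pairs lay above the product, and intervals were apart above in 19 and below in 1. In mature DC of that library 17 of 29 lay above it, with intervals apart in 5. These are shares among cells of 1 library, whose cells are not replicates and differ in content and state.

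A pair of genes stood outside this pattern. In Ppp1r15a, 0 of 9 pairs had intervals apart. Ddit4 was found less often in cells with Atf4 (7.45%, 5.12 to 10.4) than in those without (18.7%, 15.2 to 22.7), and likewise for Eif4ebp1 (8.20% and 18.9%) and Ddit3 (8.88% and 15.6%). Ddit4 and Chac1 were found together in 0 cells, where the product of their shares gave 5.16. At 8000 UMIs per cell they were found together in 5 cells, where the product gave 10.00, so that the 0 holds at the lower depths alone. When cells with at least 2 UMIs of Sirpa and Siglech were left out, Ddit4 was found in 5.67% (3.49 to 8.61) of cells with and 10.8% (7.37 to 14.99) of cells without Atf4, and the intervals overlapped.

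**Figure D5:**
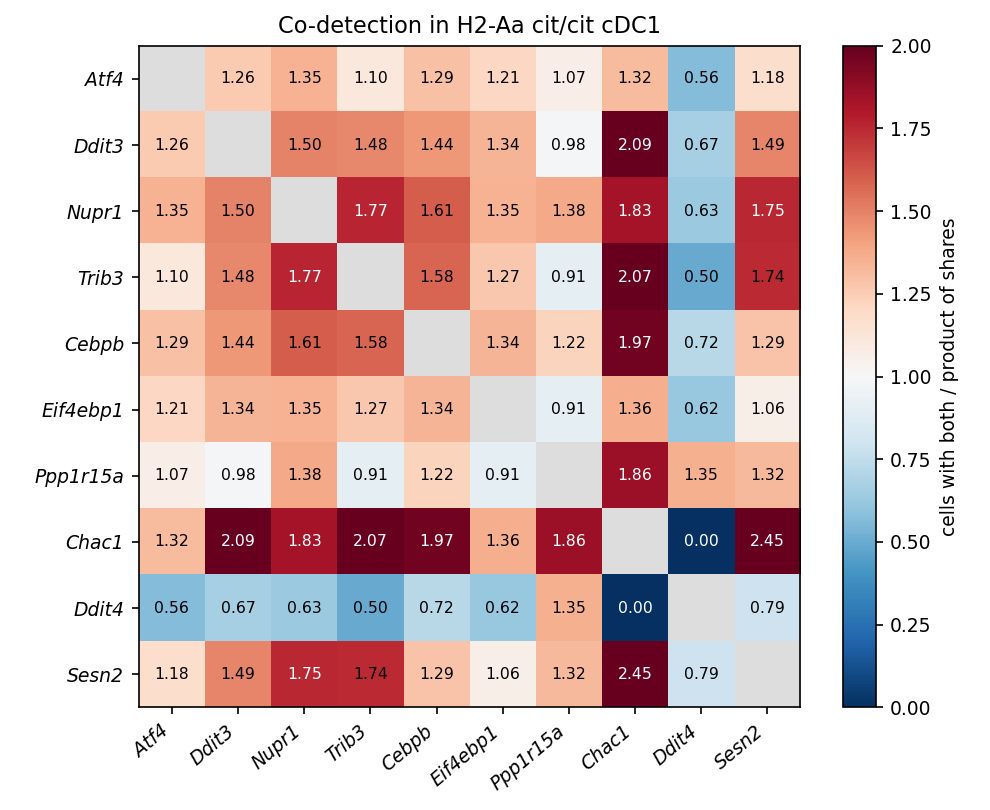
For each pair of the 10 genes in 854 H2-Aa cit/cit cDC1 thinned to 5000 UMIs, the number of cells with both genes divided by the product of their shares, red above 1 and blue below. The row of Ddit4 lies below 1 with every gene other than Ppp1r15a (0.00 with Chac1 at this depth, 0.56 with Atf4), while Chac1 lies above 1 with every gene other than Ddit4 (2.09 with Ddit3, 2.45 with Sesn2).

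In the H2-Aa cit/cit library other genes differed along with the number found per cell. H2-Aa cit/cit cDC1 were set in 3 ranges, with 0 or 1 (295 cells), 2 or 3 (319 cells) and 4 or more (240 cells) of the genes found. The 18 genes of the ATF6 and XBP1 arm of the unfolded protein response, which encode ER chaperones and quality control proteins, summed to 6631, 13867 and 20131 CPM of the thinned UMIs. Hspa5, the ER chaperone BiP, gave 1224 CPM (1168 to 1282), 2933 CPM and 4433 CPM (4315 to 4554). Asns, asparagine synthetase and an ATF4 target, gave 25.1, 70.2 and 120.0 CPM. The composition of the cells differed too: markers of cDC2 summed to 818, 317 and 213 CPM and those of pDC to 1894, 925 and 795 CPM, Xcr1 gave 212, 310 and 365 CPM, and the median depth before thinning was 10796, 14809 and 15810 UMIs. The part of composition and depth in the ranges was not tested. In WT, cells with 4 or more were too few for a range. The ATF6 and XBP1 arm summed to 2771 CPM in WT cDC1 with 0 or 1 (601 cells) and 2971 CPM with 2 or 3 (110 cells). Mature DC markers summed to 948 and 2253 CPM in these WT cells. In WT cDC2 the arm summed to 1572 and 1583 CPM. In H2-Aa cit/cit cDC2 with 4 or more of the genes (217 cells), the ATF6 and XBP1 arm summed to 9597 CPM, against 2881 CPM in cells with 0 or 1. Cells with at least 2 UMIs of Xcr1 and Clec9a together had entered cDC1 first, so that a cDC2 could hold at most 1. Within that limit, Xcr1 gave 0 UMIs and Clec9a 3 UMIs in these 217 cells. The pDC markers summed to 823 CPM in them, against 314 CPM in cells with 0 or 1 of the genes, and their part was not tested.

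The lists of other genes around the 10 were chosen with earlier results of these data known. In cDC1 they differed in how many genes were called, where 6.55% of all genes tested were called higher and 8.40% lower. Among 16 genes of eIF2α kinases and eIF2 control, 2 were called higher and 0 lower. Those were Dnajc3 (146 and 728 CPM), an ER co-chaperone that also inhibits eIF2α kinases and is counted in the ATF6 and XBP1 list too, and Eif2s2 (186 and 407 CPM), a subunit of eIF2. The PERK gene Eif2ak3 gave 49.7 and 63.7 CPM and the GCN2 gene Eif2ak4 67.2 and 50.7 CPM. Of 23 ATF4 targets of amino acid and redox metabolism that were tested, 22 were called higher and 0 lower (median log2 ratio 1.47). Asns gave 1.51 and 77.3 CPM (log2 ratio 5.68, 4.97 to 6.49), and Phgdh and Psat1, enzymes of serine synthesis, had log2 ratios of 3.98 and 2.31. The lowest 3 of those called were Sqstm1 (1.21), Slc3a2 (0.95) and Slc38a2 (0.70). Among 16 other bZIP factors, 7 were called higher and 0 lower. Atf5, whose mRNA is under similar translational control, led with 3.69 and 124 CPM (log2 ratio 5.07), followed by Jdp2 (1.37) and Cebpg (0.80), and the lowest were Creb3 (0.64), Atf6 (0.63) and Xbp1 (0.59). All 18 genes of the ATF6 and XBP1 arm were called higher (median 2.27), led by Derl3 (1.04 and 106 CPM), Creld2 (3.41) and Pdia4 (3.18), and the lowest were Edem1 (1.58), Canx (0.98) and Xbp1. Of the genes named here, Asns, Phgdh, Psat1, Atf5 and Derl3 were below 10 CPM in WT. They entered these counts only through their level in H2-Aa cit/cit cells, so that a call of lower was not possible for them. The other genes of the lists were not checked for this, and no counts were made without such genes. The same limit applies to the counts of these lists below.

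The genes tied to CHOP and cell death were divided. Dnajb9 (log2 ratio 2.03), an ER co-chaperone, Ero1l (0.79), an ER oxidase, and Bbc3 (0.61), which encodes the pro-apoptotic PUMA, were called higher. Bcl2l11, which encodes the pro-apoptotic BIM, gave 68.7 and 18.9 CPM, Pmaip1, which encodes NOXA, 166 and 54.3 CPM, and Gadd45b 137 and 23.1 CPM, and these 3 were called lower. As with Ppp1r15a, Ccr7 or Fscn1 cells carried 88.4% of the Gadd45b and 58.0% of the Bcl2l11 UMIs of WT cDC1. In the rest of the gate Bcl2l11 gave 34.8 CPM (31.0 to 39.0) in WT, against 18.3 CPM (15.96 to 20.8) in H2-Aa cit/cit cells, and Pmaip1 129 and 51.1 CPM. Gadd45b gave 19.3 CPM (16.5 to 22.4) and 13.9 CPM (11.9 to 16.1) there, short of 1.5-fold. Of 12 immediate-early genes, which tissue handling can raise, Jun, Dusp1 and Zfp36 were called lower and 0 higher, with the backgrounds of 8.40% and 6.55% given above. All 3 were also lower in the rest of the gate, Zfp36 with 120 and 68.5 CPM. Of 6 heat shock genes 0 were called, of 4 glucocorticoid-induced genes Tsc22d3 (log2 ratio 0.99) was called higher, and of 4 p53 targets Bbc3, already named. In cDC2, with backgrounds of 2.13% higher and 2.93% lower, 6 of 19 ATF4 targets were called higher and 0 lower: Slc7a5 (0.99), an amino acid transporter, Herpud1 (0.68), and the tRNA synthetase genes Sars (0.79), Aars (0.74), Iars (0.66) and Nars (0.63). Of the ATF6 and XBP1 arm, 16 of 17 were called higher in cDC2, led by Creld2 (2.39), Sdf2l1 (2.22) and Manf (1.99), with Dnajb11 (0.78), Xbp1 (0.78) and Canx (0.76) lowest. Atf5 (3.19) and Xbp1 were the bZIP factors called higher there, Dnajc3 (1.11) was called among the genes of eIF2 control and Dnajb9 (0.83) among those of CHOP and death. Atf5, at 2.64 CPM in WT cDC2, was again tested only through its level in H2-Aa cit/cit cells. Egr1 (−1.70), Zfp36 (−0.66) and Jun (−0.63) were the immediate-early genes called lower in cDC2, and Zbtb16 (−1.17), a glucocorticoid-induced gene, was lower as well.

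Over the 18 class and library values of 9 classes with at least 50 cells, the profiles of Atf4 and Ddit3 were most like each other and like ER genes among 8702 genes, to which Trib3 and Chac1 did not belong for their low level. On the scale of log2(CPM + 5), Atf4 followed Calr (Pearson's r 0.90), Ddit3 (0.90) and Dnajb11 (0.89), and Ddit3 followed Atf4, Derl3 (0.90) and Atf5 (0.90). With Chac1 and Trib3 Atf4 had an r of 0.91 each. The points share 2 libraries and their depth. Of the 18 values, that of H2-Aa cit/cit cDC1 was the highest for both Atf4 (167 CPM) and Ddit3 (133 CPM). The next highest came from the same library, 95.9 CPM for Atf4 in macrophages and 59.3 CPM for Ddit3 in cells outside every gate. The high cDC1 value already enters the ratios reported above for that class. Its part in these r values was not tested. The other genes of the group had different neighbors: Nupr1 was most like Ebi3 (0.86), Guca1a and Metrnl, Cebpb like Apoc2 (0.95), Bcl2 and Ace, the last of these a gate gene of monocyte-like cells, and Eif4ebp1 like Bax (0.92), Cyb5r1 and Cdk2ap2. Ppp1r15a was most like Cd83 (0.94), Stxbp3 and Ntng2, Ddit4 like Oasl2 (0.92), Ccnd3 and 0610030E20Rik, and Sesn2 like Banp (0.84), Zfp266 and Slc16a14.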

How the data were processed

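The deposited files hold raw UMI counts for each gene in each called cell, produced by the authors with Cell Ranger 5.0.1 on mm10 (GRCm38) and not normalized. Seurat is named in the submitters' notes and its output was not used here. The 10 genes, the gates and the gene lists were chosen with earlier results of these data known. Each cell entered the first class whose marker threshold it met, and no cell and no doublet was removed. UMIs were summed over a class and divided by its total (CPM). Levels carry Poisson, shares Clopper-Pearson and ratios conditional binomial intervals. A call needed 1.5-fold, an interval excluding 1 and a mean of 10 CPM. It was run on simulated Poisson counts without variation between libraries, the model that the intervals assume. That run cannot tell how calls hold between single libraries. Cells were thinned to 1500 UMIs for shares by class and to 5000 UMIs for co-detection, and shallower cells were dropped (144 cDC1 in WT, against 74 in H2-Aa cit/cit, for the latter). Named genes were the 10 in every class, genes of the pathway and stress lists called in cDC1 or cDC2 (the 3 highest and 3 lowest where over 6 were called), and the 3 most similar profiles of each gene with a mean of at least 10 CPM. Genes named outside this rule (Eif2ak3, Eif2ak4 and, by range of cells, Hspa5 and Xcr1) were chosen after their values were seen. Alternatives covered scaling, gates, thinning and thresholds. Promoter windows came from RefSeq (GRCm38.p6) and gene identifiers from GENCODE vM21. Python 3.11.15, numpy 2.4.6, scipy 1.17.1, pandas 2.3.3 and matplotlib 3.10.9 were used. Cell Ranger drops reads that fit 2 genes, so reads in the overlap of the Ddit3 identifiers may be missing.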

Additional observations from a re-analysis of the deposited data

Results flagged for a closer look

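For Cebpb and Nupr1 the libraries differed in opposite directions in cDC1 and in monocyte-like cells, and in neither case was the difference between the classes tested. The log2 ratio of Cebpb was 2.69 in cDC1 and −0.98 in monocyte-like cells, 3.67 apart. Monocyte markers in the latter gate summed to 1936 CPM in WT, against 1262 CPM in H2-Aa cit/cit, and cDC2 markers to 1016 and 1188 CPM, and their part in the difference was not tested. That of Nupr1 was 5.18 in cDC1 and −0.37 (−0.70 to −0.03) in monocyte-like cells, 5.55 apart. In monocyte-like cells Nupr1 gave 151 CPM in WT, against 117 CPM in H2-Aa cit/cit, and with scaling by the median ratio its interval included 0 (−0.65 to 0.02).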

How the results depend on the processing

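No replicate could be left out and no paired analysis was possible because each genotype has 1 library. In cDC1, 8 genes higher and 1 lower became 4 and 0 at a mean of at least 50 CPM. Atf4, Ddit3, Nupr1 and Eif4ebp1 alone reached that mean, so that the other genes left the test and did not lose a call in it. Of those that stayed, Ddit3, Nupr1 and Eif4ebp1 lay below 50 CPM in WT (12.3, 2.93 and 35.6 CPM). They were tested only through the H2-Aa cit/cit library, so that a call of lower was not possible for them. Shares over all genes were not computed for the alternatives. In the other alternatives between 7 and 9 were higher. The 1 lower, Ppp1r15a, became 0 at 2-fold, with a gate of 5 UMIs or more, with a gate after thinning (log2 ratio 0.15, reversed) and without Ccr7 or Fscn1 cells (0.18, reversed). Its share of positive cells, H2-Aa cit/cit minus WT, was −1.42 percentage points with thinning, where the intervals of the shares overlapped, and 0.77 without. At a mean of at least 50 CPM, the counts higher were 2 in cDC2 (from 5), 1 in Ccr2/Mgl2 cDC2 (from 2), 0 in mature DC (from 4) and 1 in proliferating cells (from 3), and 0 were lower in Ccr2/Mgl2 cDC2 (from 1) and 1 in monocyte-like cells (from 2). In these classes too the genes lost from the counts were below that mean and no longer tested. Atf4 and Ppp1r15a alone reached it in mature DC, and Atf4 and Ddit4 alone in cDC2. Those still called higher were also below 50 CPM in WT, so that a call of lower was not possible for them. They were Atf4 and Ddit4 in cDC2 (38.5 and 48.6 CPM), Atf4 in Ccr2/Mgl2 cDC2 (43.2 CPM) and Ddit4 in proliferating cells (38.6 CPM). At 2-fold, Ccr2/Mgl2 cDC2 had 1 higher and 0 lower and monocyte-like cells 0 and 0. With no minimum, proliferating cells had 5 higher. Monocyte-like cells had 0 higher and 1 lower among cells of at least 8% ribosomal UMIs, and 2 and 1 with scaling by the median ratio. Pairs with intervals apart in H2-Aa cit/cit cDC1 numbered 25 at 5000 UMIs, 8 at 2500 and 28 at 8000, and, in alternatives chosen after seeing the data, 17 without Sirpa or Siglech cells and 12 with a gate of 5 UMIs or more. The genes found per cell, H2-Aa cit/cit over WT, stayed between 2.92 and 4.46-fold. Alternatives without any UMI of the cDC2 gate or Siglech in cDC1, or of Xcr1 or Clec9a in cDC2, were also chosen after seeing the data and gave 7 higher in cDC1 and 5 in cDC2. The counts of called genes were not computed for the mean over cells, in which 9 genes kept a higher and Ppp1r15a a lower value in H2-Aa cit/cit cDC1.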
